A study of Mus musculus with 4 samples.

Results

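Lymphatic endothelial nuclei were a small population of the hearts studied: 232 nuclei, of 27048 that passed the same 4 filters and of 39696 deposited barcodes. A nucleus was eligible when it held at least 500 unique molecular identifiers (UMIs, each standing for 1 captured RNA molecule), at least 300 genes, under 5% mitochondrial UMIs and under 3% of its UMIs from the cardiomyocyte genes Ttn, Ryr2 and Myh6. Members then had 3 or more UMIs summed over Prox1, Mmrn1, Reln and Ccl21a from at least 2 of these 4 genes. They also held 2 or fewer UMIs over the endocardial genes Npr3, Tmem108 and Nrg1, and 1 or fewer over Pdgfra, Pdgfrb and Abca8a, which mark fibroblasts and mural cells. Flt4, a lymphatic receptor that the rule did not use, had a UMI in 197 of the 232 nuclei, so the name was kept.

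Lymphatic endothelial cells line the blind-ended capillaries and the valved collecting vessels that return tissue fluid, lipids and leukocytes to the blood. They arise mostly from veins under the transcription factor PROX1, which they also need to keep their identity. Their growth depends on the ligand VEGF-C, which is processed with the help of CCBE1 and ADAMTS3 and is received by VEGFR-3, the product of Flt4, with neuropilin-2 as a co-receptor. In the heart, lymphatic vessels drain fluid and immune cells after injury, and reelin secreted by them has been linked to heart growth and repair in mice.

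Whole hearts of male wild-type (WT) C57BL/6J mice were profiled by single-nucleus RNA sequencing, with 1 heart in each library. In 2 libraries the offspring had an injured father and in 2 an uninjured father. All 4 offspring had themselves been injured 1 day after birth, and their hearts were taken 21 days after that injury, so no heart here came from an uninjured offspring. The labels describe removal of blood cells by a Ter119 antibody and a target of 10000 nuclei per library, and they do not say whether hearts of a group shared a father or litter. P-values therefore measure the spread between 4 hearts. Libraries held 29298446 and 40004944 UMIs with an injured father, against 38102388 and 21723461 UMIs with an uninjured father. Between 23 and 33 barcodes were shared by any pair of libraries, and none of them was shared among members.

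The members numbered 64 and 72 in the injured-father libraries, against 59 and 37 in the uninjured-father libraries. Their UMIs summed to 247275 and 263374 with an injured father, against 202614 and 118649 with an uninjured father. The second uninjured-father library thus had the fewest nuclei and the fewest UMIs. A member held a median of 3157.5 UMIs, and members ranged between 752 and 12935 UMIs. Levels below are given as CPM, the UMIs of a gene per 1000000 UMIs summed over the nuclei of a type in a library. Nuclear RNA also carries introns, so long genes collect more UMIs, and levels are compared between nuclei and not between genes.

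One of the rule genes belongs to a family of near-identical copies, and its sequence is shown for that reason. Ccl21a (ENSMUSG00000094686) encodes the chemokine CCL21, which lymphatic vessels secrete to draw in dendritic cells and T lymphocytes carrying CCR7. In the GENCODE M21 transcripts of GRCm38, the copies Ccl21b, Ccl21d, Gm13304 and Gm10591 also lie on chromosome 4. Each has a coding sequence of 402 bases that differs from Ccl21a at T84A and C194T, with the base of Ccl21a first and positions counted from the A of the start codon. The coding bases 175 to 214 around the second difference are given for the counted gene and 1 copy, with base 194 in capitals.
Ccl21a: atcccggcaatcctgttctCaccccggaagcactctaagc
Ccl21b: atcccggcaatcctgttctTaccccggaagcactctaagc
Whole transcripts of Ccl21a and Ccl21d differed at 6 of 870 bases, 3 of them within the last 300 bases that a 3' kit reads best. All 4 copies were listed at 0 UMIs in every library, whereas Ccl21a held 619 UMIs in the members. Whether counts under Ccl21a include RNA of its copies was not tested, and the counts alone cannot show it.

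The 4 rule genes were at similar levels in the 4 hearts. Prox1 (ENSMUSG00000010175) was at 1921 and 1363 CPM in members with an injured father, against 1599 and 1306 CPM with an uninjured father. Mmrn1, the adhesive glycoprotein multimerin-1, was at 1031 and 1162 CPM with an injured father and at 1204 and 1273 CPM with an uninjured father. Reln, the secreted matrix protein reelin, was at 1076 and 1363 CPM with an injured father and at 1273 and 1264 CPM with an uninjured father. Ccl21a was at 833 and 680 CPM with an injured father and at 632 and 893 CPM with an uninjured father. For Prox1, Reln and Ccl21a the groups overlapped, and for Mmrn1 both injured-father values lay just below both uninjured-father values. These genes chose the members, so their levels are a description and no test of them is given.

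Flt4 (ENSMUSG00000020357), the receptor for VEGF-C, gave a reading that the rule had not used. It was at 1149 and 907 CPM in members with an injured father, against 933 and 936 CPM with an uninjured father, and the groups overlapped. Its mean over the 4 hearts was 981 ± 112 CPM (SD, n = 4) in members. The same mean was 62.2 CPM in vascular endothelial nuclei, 31.9 CPM in endocardial nuclei, 8.07 CPM in fibroblast nuclei and 5.14 CPM in cardiomyocyte nuclei. A UMI of Flt4 was present in 84.9% of members, against 10.1% of vascular nuclei and 1.94% of cardiomyocyte nuclei, which lack this receptor and serve as the background. Median depths were 2773 to 3399.5 UMIs in members, 1422 to 1901.5 UMIs in vascular nuclei and 3378 to 5291 UMIs in cardiomyocyte nuclei.

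The vascular, endocardial and fibroblast nuclei set beside the members were chosen by rules of the same kind. Vascular nuclei needed 3 UMIs over Flt1, Kdr, Ptprb and Pecam1, endocardial nuclei 3 over Npr3, Tmem108 and Nrg1, and fibroblast nuclei 3 over Pdgfra and Abca8a. Each of these sets held at most 1 UMI of the 4 lymphatic genes, which left 6729 vascular, 1034 endocardial and 5017 fibroblast nuclei. Cardiomyocyte nuclei, 11086 in all, were those with 3% or more of their UMIs from Ttn, Ryr2 and Myh6. Since the nuclei were sorted by their own RNA, differences between these sets are described and not tested.

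The edge of the rule was examined with Flt4. The 20 nuclei just outside it, with 2 UMIs from 2 of the 4 genes, had Flt4 in 30% of nuclei and at 227 CPM. The 16 nuclei just inside, with exactly 3 UMIs, had it in 68.8% and at 712 CPM. Flt4 stood at 814 CPM in the 68 members with 4 to 9 of these UMIs and at 1058 CPM in the 148 members with 10 or more. Among 49 nuclei with 3 or more UMIs from a single one of the 4 genes, which the rule left out, it was at 103 CPM, and among 12177 nuclei with none it was at 41.3 CPM. Members held a median of 12.5 UMIs over the 4 genes, 112 members carried all 4 genes, 80 carried 3 and 40 carried 2. Medians per library were 15.5 and 13.5 of these UMIs with an injured father, against 9 and 10 with an uninjured father.

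The exclusion limits removed further nuclei with lymphatic RNA. A total of 20 nuclei met the lymphatic threshold and were removed by the endocardial genes alone, 97 by Pdgfra, Pdgfrb or Abca8a alone and 31 by both. Their median depths were 7624.5, 6358 and 14991 UMIs in the same order, above that of the members, and 17, 75 and 24 of them held a UMI of Flt4. Whether these are mixed droplets or deep lymphatic nuclei was not tested.

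**Figure D1:**
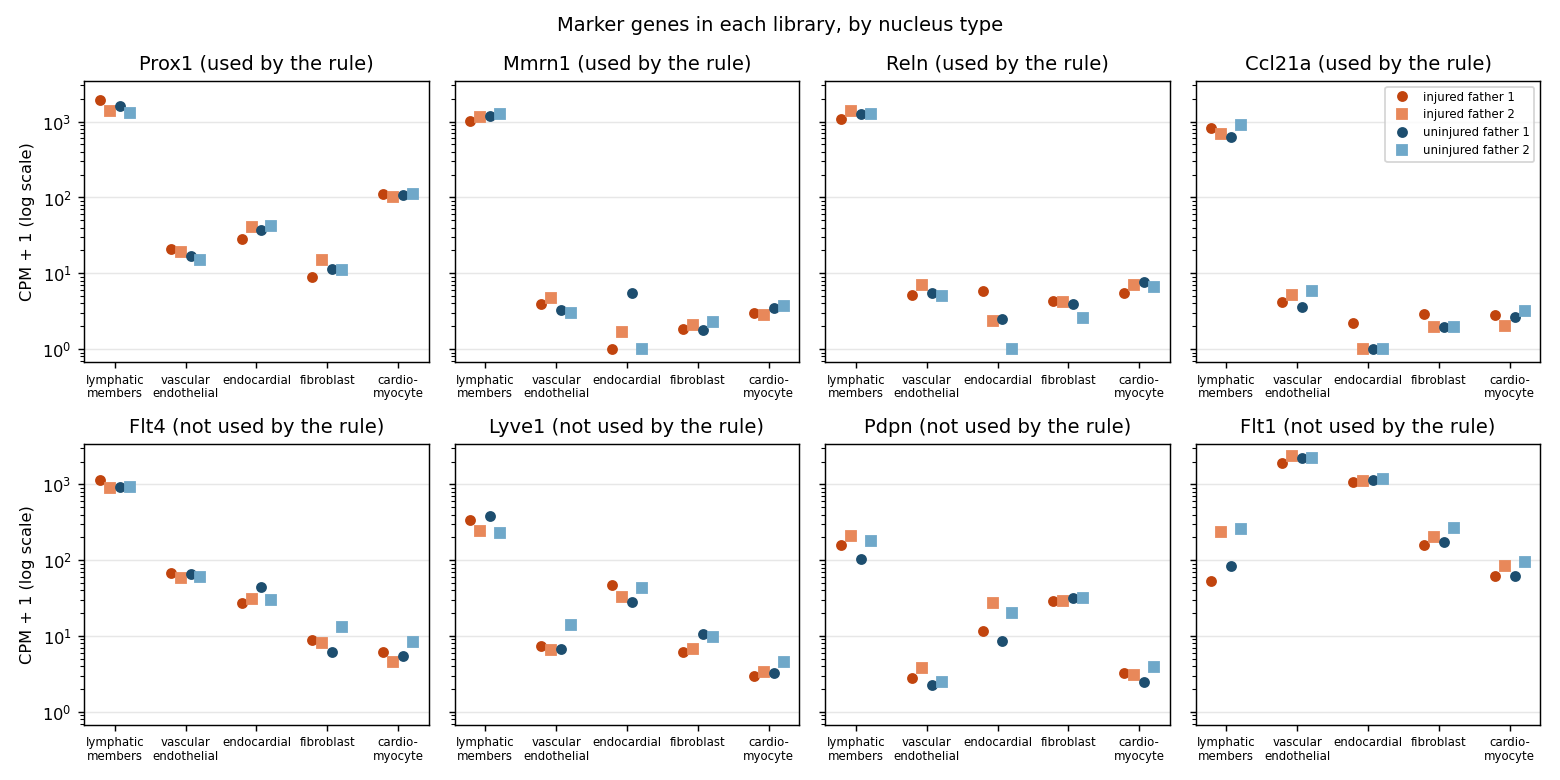
CPM + 1 on a log scale for 8 genes in each of the 4 libraries, in lymphatic members, vascular endothelial, endocardial, fibroblast and cardiomyocyte nuclei; circles and squares are the first and second library of each father group. Flt4, Lyve1 and Pdpn, which the rule did not use, stood higher in members than in the other nuclei in each library, and Flt1 stood lower in members than in vascular and endocardial nuclei.

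Other lymphatic and vascular markers separated in the same way. Lyve1, a hyaluronan receptor of lymphatic capillaries, was at 336 and 239 CPM in members with an injured father, against 380 and 228 CPM with an uninjured father, and at a mean of 7.66 CPM in vascular nuclei. Pdpn, the membrane glycoprotein podoplanin, was at 158 and 209 CPM with an injured father, against 104 and 177 CPM with an uninjured father, and at a mean of 1.83 CPM in vascular nuclei. For both genes the libraries of the father groups overlapped, but for Lyve1 the overlap rested on 1 deep nucleus of 12935 UMIs, which held 46 of the 77 Lyve1 UMIs of the first uninjured-father library. With the nucleus richest in Lyve1 left out of each library, a setting chosen after seeing the data, Lyve1 was at 320 and 215 CPM with an injured father, against 163 and 201 CPM with an uninjured father, and the groups did not overlap. Lyve1 had a UMI in 40.9% of members and Pdpn in 31.0%, so most single nuclei showed none of either at this depth. The vascular receptor Flt1 averaged 156 ± 103 CPM in members (SD, n = 4), against 2159 CPM in vascular nuclei, which were partly chosen by it.

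Markers of other cells were also present in members, those of cardiomyocytes among them. The 9 cardiomyocyte markers summed to 2766 and 5274 CPM with an injured father, against 5158 and 4585 CPM with an uninjured father, and were lower in members than in vascular nuclei in all 4 libraries. The sums for 10 vascular markers were 1331 and 2126 CPM with an injured father, against 1792 and 2006 CPM with an uninjured father. The first injured-father library was lowest on both lists, and its members had a median of 1.27% mitochondrial UMIs, against 0.490% in the second and 0.763% and 0.786% in the uninjured-father libraries. The 7 macrophage markers summed to 125 and 566 CPM with an injured father, against 158 and 438 CPM with an uninjured father. The 7 fibroblast markers summed to 202 and 421 CPM with an injured father, against 341 and 539 CPM with an uninjured father, and the 8 pericyte and smooth muscle markers to 154 and 197 CPM with an injured father, against 158 and 371 CPM with an uninjured father. The 5 endocardial markers reached 1452 and 1367 CPM with an injured father, against 1446 and 1517 CPM with an uninjured father, and Hmcn1, a matrix protein on that list, averaged 1338 CPM of this in members. The rule capped Npr3, Tmem108 and Nrg1 on that list, Pdgfra and Abca8a on the fibroblast list and Pdgfrb on the pericyte list. It also capped Ttn, Ryr2 and Myh6 on the cardiomyocyte list, so the sums of these lists are partly set by the rule.

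Marker sums of the remaining cell types were at 101 CPM or below, the highest of them for B lymphocytes. T lymphocyte markers summed to 32.4 and 7.59 CPM with an injured father, against 4.94 and 8.43 CPM with an uninjured father, with Cd3e at 0. B lymphocyte markers summed to 48.5 and 26.6 CPM with an injured father, against 88.8 and 101 CPM with an uninjured father, with Cd79a at 0, and to 274 and 105 CPM in vascular nuclei with an injured father, against 101 and 128 CPM with an uninjured father. Bank1, the B lymphocyte marker deep enough for the test, was at 28.3 and 26.6 CPM in members with an injured father, against 64.2 and 84.3 CPM with an uninjured father, without overlap, and was not called (log2 fold change -1.37, SE 0.51, adjusted p = 0.979, edgeR). Mesothelial markers summed to 12.1 and 26.6 CPM with an injured father, against 4.94 and 8.43 CPM with an uninjured father, and Krt19, Msln, Upk1b and Upk3b were at 0. Schwann markers lay between 8.43 and 36.4 CPM, and adipocyte markers were listed at 16.2 CPM in 1 library and at 0 in 3, with Adipoq at 0. Of the 232 members, 9 were marked as doublets, 5 of them in the second uninjured-father library.

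The transcription factors and receptors of lymphatic identity were mostly higher in members than in vascular nuclei. Of the 21 genes on the identity list, 20 averaged at least 20 CPM over both sets, and 16 of these were higher in members in all 4 libraries and 3 lower, against 1415 higher and 1469 lower of 6937 such genes in all. The list holds the 4 rule genes, and the median of its log2 ratios was 2.55, against 0.02 over those 6937 genes. Nr2f2, the venous transcription factor COUP-TFII that acts upstream of Prox1, was at 522 and 342 CPM in members with an injured father, against 429 and 632 CPM with an uninjured father, and averaged 102 CPM in vascular nuclei. Itga9, the integrin needed for lymphatic valves, averaged 1277 ± 83.1 CPM in members and 252 CPM in vascular nuclei. Stab1, a scavenger receptor, averaged 574 ± 90.6 CPM in members and 102 CPM in vascular nuclei. Thy1, a surface glycoprotein found on mouse lymphatic endothelium, averaged 106 ± 39.1 CPM in members and 3.58 CPM in vascular nuclei (SD, n = 4 for each of these genes).

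Receptors for lymphatic growth were present in the members, while the ligand and its processing proteins stood higher in other nuclei. Nrp2, the co-receptor of VEGFR-3, was at 1525 and 1769 CPM in members with an injured father, against 1594 and 1357 CPM with an uninjured father, and averaged 1049 CPM in vascular nuclei. Kdr, which encodes VEGFR-2, was at 287 and 315 CPM with an injured father, against 271 and 346 CPM with an uninjured father, and averaged 543 CPM in vascular nuclei. The groups overlapped for both receptors. Vegfc averaged 23.8 ± 16.7 CPM in members (SD, n = 4), 457 CPM in vascular nuclei, 201 CPM in fibroblast nuclei and 179 CPM in endocardial nuclei. Ccbe1, the matrix protein that promotes cleavage of VEGF-C, averaged 15.9 CPM in members and 735 CPM in fibroblast nuclei. Adamts3, the protease for that cleavage, averaged 19.5 CPM in members and 125 CPM in cardiomyocyte nuclei. Svep1, a matrix protein needed for lymphatic remodelling in mice, averaged 20.7 CPM in members and 347 CPM in fibroblast nuclei.

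The Tie receptors and their ligands showed a further division between nuclei. Tie1 averaged 293 CPM in members and 367 CPM in vascular nuclei, and Tek, which encodes TIE2, 407 CPM in members and 639 CPM in vascular nuclei. Angpt2, a ligand of TIE2 that acts as an agonist in lymphatic endothelium, averaged 76.9 ± 11.9 CPM in members (SD, n = 4) and 19.6 CPM in vascular nuclei. Angpt1, the other main ligand, averaged 65.2 CPM in members and 583 CPM in cardiomyocyte nuclei. Of the 27 genes on the growth list, 21 averaged at least 20 CPM, of which 7 were higher and 9 lower in members than in vascular nuclei in all 4 libraries. Among all genes, 1415 were higher and 1469 lower of 6937. The growth list holds Kdr and Flt1, which chose the vascular nuclei.

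The genes outside the rule that stood furthest above all other kept nuclei are shown next. They were ranked by the log2 ratio of mean CPM with 20 CPM added, among 3897 genes with a UMI in at least 10% of members in every library, and none of the 25 was a predicted gene. Tc2n, which encodes a protein with tandem C2 domains, led with 643 and 763 CPM in members with an injured father, against 666 and 464 CPM with an uninjured father, and averaged 4.02 CPM in vascular nuclei. Pard6g, a member of the PAR polarity complex, was at 724 and 896 CPM with an injured father, against 804 and 919 CPM with an uninjured father, and averaged 16.6 CPM in vascular nuclei. Prkcz, the atypical protein kinase C of the same complex, was at 275 and 364 CPM with an injured father, against 271 and 270 CPM with an uninjured father, and averaged 3.82 CPM in vascular nuclei. Mpp7, a scaffold of cell polarity, averaged 1568 ± 159 CPM in members and 111 CPM in vascular nuclei (SD, n = 4). These 3 polarity genes stood among the 25 together with Cldn5, the tight junction protein claudin-5, at 302 ± 68.3 CPM in members and 50.4 CPM in vascular nuclei (SD, n = 4).

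Further genes of the 25 encode proteins of varied kinds. Sema3d, a secreted semaphorin, averaged 1079 ± 76.6 CPM in members, against 37.5 CPM in vascular and 66.7 CPM in endocardial nuclei. Sema3a, a semaphorin that acts in lymphatic valve formation, averaged 557 ± 169 CPM in members, against 24.2 CPM in vascular and 153 CPM in endocardial nuclei. Piezo2, a channel opened by mechanical force, averaged 913 ± 106 CPM in members and 72.3 CPM in vascular nuclei. Dtx1, a regulator of Notch signalling, averaged 357 ± 27.3 CPM in members and 3.14 CPM in vascular nuclei. Tll1, a tolloid-like metalloprotease, averaged 1010 ± 494 CPM in members, 55.3 CPM in vascular nuclei and 290 CPM in endocardial nuclei, with the largest SD of the 25 genes. Met, the receptor of hepatocyte growth factor, averaged 245 ± 85.0 CPM in members and 8.03 CPM in vascular nuclei. Scn3a, a voltage-gated sodium channel subunit, averaged 520 ± 139 CPM in members and 7.21 CPM in vascular nuclei (SD, n = 4 for each gene).

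Some of the 25 also had RNA in endocardial nuclei, and others are given here against vascular nuclei alone. Sh3gl3, an endophilin of membrane trafficking, averaged 362 CPM in members and 3.12 CPM in vascular nuclei. Kif26b, a kinesin-like protein, averaged 807 CPM in members and 180 CPM in endocardial nuclei, so it was not low in all other endothelium. Klhl4 likewise averaged 621 CPM in members and 199 CPM in endocardial nuclei. Slc45a3, a solute carrier, averaged 402 CPM in members, 3.56 CPM in vascular nuclei and 45.0 CPM in endocardial nuclei. Adgrg3, an adhesion receptor, closed the ranking at 190 CPM in members and 7.27 CPM in vascular nuclei. The 25 also included Flt4 and Lyve1, described above, and Pld5, Fgl2, Apba2, Dennd4a, Clca3a1 and Sgsm1.

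**Figure D2:**
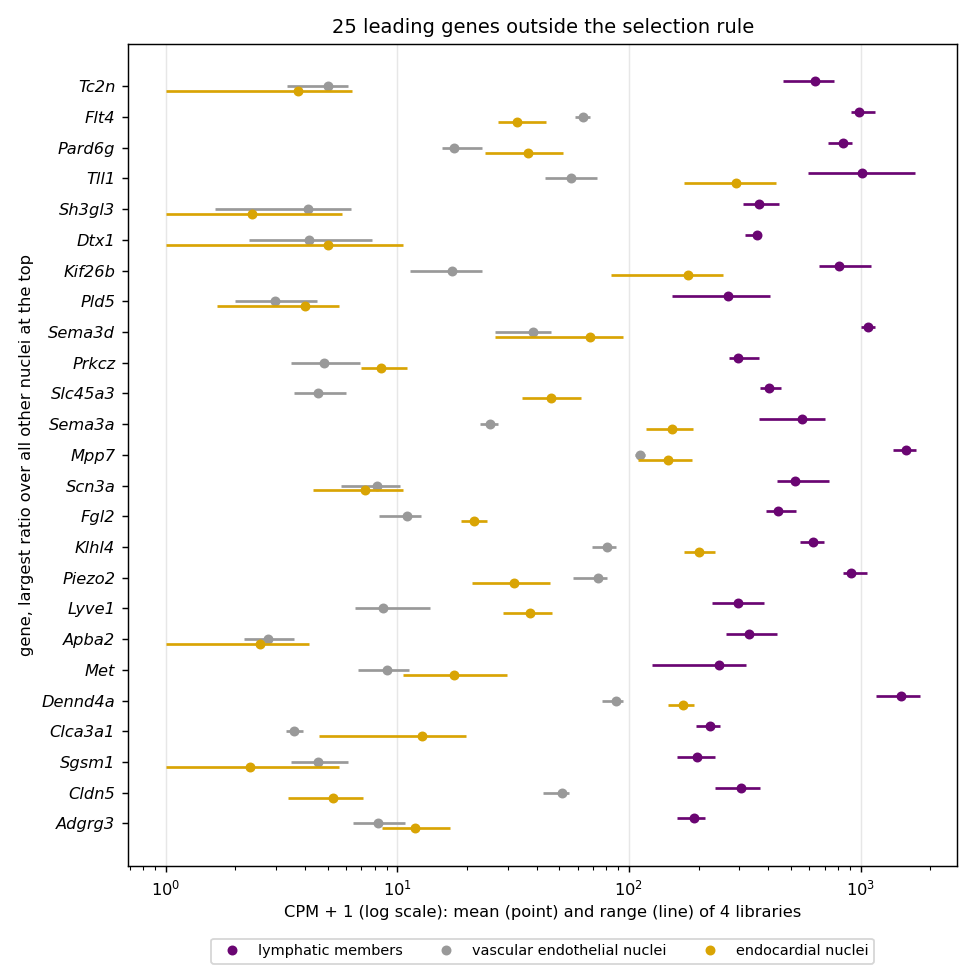
Mean CPM + 1 on a log scale (points) with the range over 4 libraries (lines) for the 25 leading genes outside the rule, in lymphatic members, vascular endothelial nuclei and endocardial nuclei. In members the ranges lay above both other sets for each gene shown, and Tll1, Kif26b, Klhl4 and Sema3a were among those with higher means in endocardial than in vascular nuclei.

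Genes of leukocyte traffic were read in the same way. Of 24 genes, 13 averaged at least 20 CPM, and 8 of these were higher in members than in vascular nuclei in all 4 libraries and 2 lower, against 1415 higher and 1469 lower of 6937 genes in all. Ccl21a, a rule gene, is one of the 8, and Stab1 and Lyve1 are also on the identity list. Il7, a cytokine that lymphocytes need to survive, was at 174 and 194 CPM in members with an injured father, against 183 and 143 CPM with an uninjured father, and averaged 1.29 CPM in vascular nuclei. Spns2, the exporter of the lymphocyte attractant sphingosine-1-phosphate, averaged 222 ± 39.7 CPM in members and 78.2 CPM in vascular nuclei. Ackr2, an atypical receptor that scavenges inflammatory chemokines, averaged 49.3 ± 34.9 CPM in members and 5.27 CPM in vascular nuclei (SD, n = 4 for both). Cxcl12, a chemokine of blood vessels, stood at 28.6 CPM in members against 229 CPM in vascular nuclei.

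Valve and collecting vessel genes varied in depth, and Foxc2, Gja4 and Cldn11 among them were detected at low counts. Foxc2, a transcription factor of lymphatic valves, was at 32.4 and 60.8 CPM in members with an injured father, against 29.6 and 33.7 CPM with an uninjured father, and averaged 1.38 CPM in vascular nuclei. That rested on 34 UMIs in all members, and 11.6% of members held one. The connexin gene Gja4 averaged 31.5 CPM in members, against 4.89 CPM in vascular nuclei, and the claudin gene Cldn11 averaged 20.4 CPM in members, against 0.642 CPM in vascular nuclei. Nfatc1, a transcription factor of valve formation, averaged 535 ± 105 CPM in members and 127 CPM in vascular nuclei (SD, n = 4). Of the 24 genes on this list, 18 averaged at least 20 CPM, with 9 higher and 3 lower in members than in vascular nuclei in all 4 libraries. Over all genes, 1415 were higher and 1469 lower of 6937.

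Genes of lipid uptake were next compared between members and vascular nuclei. Of 30 genes, 25 averaged at least 20 CPM, with 3 higher and 10 lower in members in all 4 libraries, and the median log2 ratio was -0.36, against 1415 higher and 1469 lower of 6937 genes and a median of 0.02 over all genes. Cd36, the fatty acid transporter, was at 158 and 228 CPM in members with an injured father, against 257 and 211 CPM with an uninjured father, and averaged 1701 CPM in vascular nuclei. Lpl, lipoprotein lipase, averaged 97.4 CPM in members and 387 CPM in vascular nuclei. Genes of antigen presentation and the interferon response had 7 of 11 below vascular nuclei in all 4 libraries and 0 above, set against the same counts over all genes, and B2m, the invariant chain of class I molecules, averaged 122 CPM in members and 187 CPM in vascular nuclei.

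Matrix and guidance genes were mixed. Lama4, the laminin chain of endothelial basement membranes, averaged 1891 ± 133 CPM in members and 617 CPM in vascular nuclei (SD, n = 4). The collagen IV chains Col4a1 and Col4a2 stood at 565 and 377 CPM in members, against 905 and 775 CPM in vascular nuclei. Ntn1, the guidance cue netrin-1, averaged 1417 ± 161 CPM in members and 113 CPM in vascular nuclei, and its receptor gene Unc5b averaged 287 ± 58.1 CPM in members and 102 CPM in vascular nuclei (SD, n = 4 for both). Reelin receptors were near the floor, since Lrp8 held 2 UMIs in all members and Dab1, the adaptor of reelin signalling, held 1. Vldlr, the other reelin receptor, averaged 32.2 CPM in members and 182 CPM in cardiomyocyte nuclei. Of the 30 guidance and adhesion genes, 27 averaged at least 20 CPM, with 13 higher and 8 lower in members in all 4 libraries. Of the 24 matrix genes, 22 did, with 8 higher and 8 lower. Both counts stand beside 1415 higher and 1469 lower of 6937 genes in all.

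Members also varied among themselves. Nuclei with a Ccl21a UMI, 149 in all, had a median depth of 3180 UMIs, and the 83 without one had a median depth of 3006 UMIs. Lyve1 was at 385 CPM in nuclei with Ccl21a, against 140 CPM in those without, and was higher in nuclei with Ccl21a in each of the 4 libraries. Nrp2 was at 1876 CPM with Ccl21a and 1061 CPM without, and Flt4 at 1150 CPM with Ccl21a and 684 CPM without, again in the same direction in each library. Foxp2, a transcription factor of collecting lymphatic vessels and valves in mice, ran the other way, at 535 CPM with Ccl21a and 1082 CPM without, also in each library. None of the other valve genes that were divided this way was lower with Ccl21a in each library. Itga9 was at 1348 CPM with Ccl21a and 1096 CPM without, higher with it in each library. For Foxc2, Gja4, Cldn11, Piezo1 and Tmtc1 the direction differed between libraries. Over all members Foxc2, Cldn11 and Piezo1 were lower with Ccl21a, and Gja4 and Tmtc1 were higher. The remaining genes of the valve list were not divided in this way. The vascular gene Flt1 was at 89.9 CPM with Ccl21a and 255 CPM without, lower with it in each library, and its part was not tested. In the second uninjured-father library the values were nearly equal, at 252 CPM with and 255 CPM without. They were 84.4 and 549 CPM in the second injured-father library. Single nuclei there held 16 and 15 of the 73 Flt1 UMIs found without Ccl21a in all libraries. Prox1 was at 1539 CPM with Ccl21a and 1654 CPM without, and its direction differed between libraries. Both are rule genes, and members without Ccl21a had to reach the threshold on the other rule genes. The rule thus partly sets the Prox1 values on either side. This division was made after the values were seen and rests on the presence of 1 UMI in sparse counts, so it is given with no test.

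The share of lymphatic nuclei was higher in both hearts with an injured father, and the separation was not seen in 3 other settings. Members made up 0.925% and 0.942% of kept nuclei in the injured-father libraries, against 0.831% and 0.687% in the uninjured-father libraries. Wilson 95% intervals, which cover counting error only, ran from 0.725% to 1.18% and from 0.749% to 1.18% with an injured father, and from 0.645% to 1.07% and from 0.499% to 0.945% with an uninjured father, so all 4 overlapped. Both injured-father values lay above both uninjured-father values, with a mean difference of 0.174 percentage points. The two-sided exact permutation test over 4 libraries gave p = 0.33, the smallest p that 6 splits allow. With each nucleus thinned to 1000 UMIs, and nuclei below that left out, the shares were 0.911% and 0.753% with an injured father, against 0.808% and 0.764% with an uninjured father, the groups overlapped and the difference was 0.046 percentage points (exact permutation p = 1). That setting left out 991 and 605 nuclei with an injured father, 0 and 1 of them members, against 788 and 933 nuclei with an uninjured father, 4 and 0 of them members. With mitochondrial UMIs under 1% the shares were 0.648% and 0.957% with an injured father, against 0.736% and 0.629% with an uninjured father, and the groups overlapped (exact permutation p = 0.67). Among lymphatic, vascular and endocardial nuclei together the shares were 2.98% and 2.85% with an injured father, against 3.13% and 2.58% with an uninjured father, which also overlapped.

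**Figure D3:**
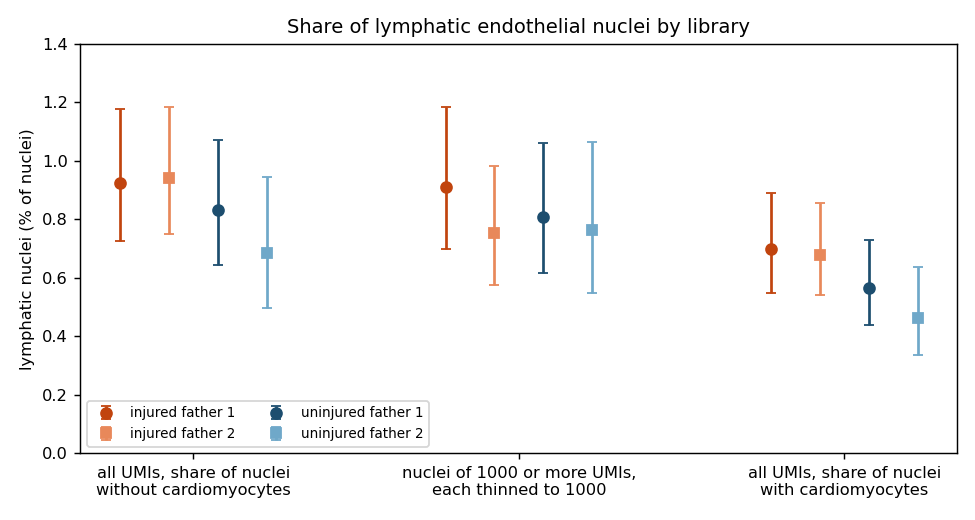
Share of lymphatic nuclei in percent for each library, with Wilson 95% intervals as bars, among kept nuclei, among nuclei of 1000 or more UMIs thinned to 1000 and among all nuclei with cardiomyocytes included. With all UMIs the injured-father points were 0.925% and 0.942%, above 0.831% and 0.687% for an uninjured father, and with nuclei of at least 1000 UMIs thinned to that depth the points of the groups overlapped.

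Between father groups, 1 gene passed the test in lymphatic nuclei. Camk1d (ENSMUSG00000039145), a calcium and calmodulin-dependent protein kinase, had 1984 and 2189 UMIs in members with an injured father, against 738 and 367 UMIs with an uninjured father. Its levels were 8023 and 8311 CPM with an injured father, against 3642 and 3093 CPM with an uninjured father. Both injured-father hearts were well above both uninjured-father hearts. The log2 fold change was 1.29 (SE 0.16) and the adjusted p was 0.0295 by edgeR's quasi-likelihood test with Benjamini-Hochberg adjustment over 4569 genes. That 1 higher gene was 0.0219% of the genes tested, and 0 genes were called lower, which is 0%. The same test gave 110 genes higher (2.41%) and 113 lower (2.47%) at an unadjusted p under 0.05, and the DESeq2 Wald test also called Camk1d and no other gene.

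The size of the Camk1d difference held across settings, but its call did not in all of them. With members limited to under 1% mitochondrial UMIs, which left 29 and 52 nuclei with an injured father, against 35 and 22 with an uninjured father, the log2 fold change was 1.03 and the adjusted p 0.106. Leaving out 1 library kept Camk1d called, with log2 fold changes between 1.18 and 1.44, while the number of called genes became 3, 47, 22 and 13 without the first and second injured-father and the first and second uninjured-father library.

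Camk1d ran in the same direction in other endothelium of the same hearts. The log2 fold change was 1.00 in vascular nuclei (adjusted p = 0.116, edgeR) and 0.94 in endocardial nuclei (adjusted p = 0.214, edgeR), and the gene was called in neither, where 3 of 11629 (0.0258%) and 3 of 8212 (0.0365%) genes passed in either direction. Its difference between lymphatic and vascular nuclei was 0.33 on the log2 scale (SE 0.20), with an adjusted p of 1 in the interaction test. Camk1d had a UMI in all 232 members and in 99.4% of vascular nuclei.

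Genes known from earlier results of these data to stand higher across cell types were also read in the members, and all 5 of the 6 that could be tested had a positive log2 fold change, the direction they were chosen for. Lars2, a mitochondrial leucyl-tRNA synthetase, was at 1371 and 1295 CPM with an injured father, against 1012 and 632 CPM with an uninjured father, with a log2 fold change of 0.68 (SE 0.22). Cdk8, a kinase of the Mediator complex, was at 845 and 767 CPM with an injured father, against 622 and 438 CPM with an uninjured father, with a log2 fold change of 0.59 (SE 0.22). For both genes the groups did not overlap, and neither passed the test (adjusted p = 0.979 by edgeR for both). Gphn, the scaffold protein gephyrin, and Cmss1 had log2 fold changes of 0.34 and 0.22, were not called, and for Cmss1 the groups overlapped and the value turned to -0.14 without the second uninjured-father library. Slc15a2, a peptide transporter, had 5 and 8 UMIs in members with an injured father, against 0 and 0 UMIs with an uninjured father, which was too few for the test. Against a floor of 3 counts over the uninjured-father group, the pooled injured-father level was 2.73-fold higher. That ratio takes the injured-father counts as exact, leaves out the spread between hearts and was not tested. In vascular nuclei the same gene had 278 and 118 UMIs with an injured father, against 1 and 5 UMIs with an uninjured father, and was called there.

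**Figure D4:**
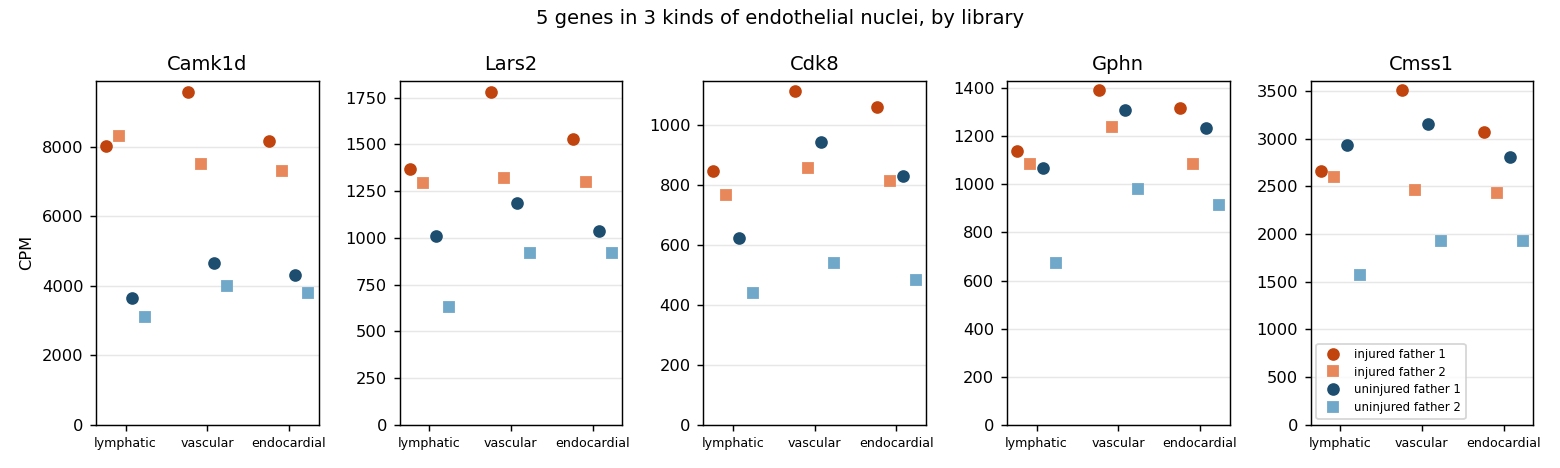
CPM of 5 genes in lymphatic, vascular endothelial and endocardial nuclei of each library, with axes that start at 0. Camk1d was at 8023 and 8311 CPM in lymphatic nuclei with an injured father, above 3642 and 3093 CPM with an uninjured father, and Cmss1 overlapped between groups in all 3 kinds of nuclei.

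Lists of lymphatic genes had medians near that of all genes tested, although growth genes were less often positive. Over the 4569 genes, 2238 (49%) had a positive log2 fold change, the median was -0.01, and the libraries of the groups did not overlap for 773 genes with injured-father values above (16.9%) and 759 with them below (16.6%). Of the 21 identity genes 19 were tested, 9 of them had a positive log2 fold change, none was called, none reached an unadjusted p under 0.05, and the median was -0.03. Of 27 growth genes 18 were tested, with 6 positive and a median of -0.06, and 4 had injured-father values below without overlap and 0 above. Flt4 had a log2 fold change of 0.15 (SE 0.19), which turned to -0.031 without the first injured-father library. Of 24 valve genes 17 were tested, with 8 positive and a median of -0.01, and of 24 leukocyte traffic genes 9 were tested, with 4 positive and a median of -0.02. No member of these 4 lists was called. The identity counts include the 4 rule genes and the leukocyte traffic counts include Ccl21a, which chose the members.

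The other lists gave mixed counts, some of them from few genes. Junction genes had 8 of 16 tested positive, lipid genes 9 of 19, reelin signalling 2 of 7, Notch, BMP and TGF-beta signalling 10 of 20, matrix 5 of 16 and guidance 11 of 22. Their medians lay between -0.09 and 0.02, and none of their members was called. Antigen presentation had 5 genes tested, 4 of them positive with a median of 0.45, and B2m was at 162 and 148 CPM with an injured father, against 83.9 and 92.7 CPM with an uninjured father (log2 fold change 0.83, SE 0.32, adjusted p = 0.979, edgeR). The cardiomyocyte marker list had 1 of 9 positive with a median of -0.20. That list holds Ttn, Ryr2 and Myh6, and reelin signalling holds Reln, all of them genes that the rule used. Few immediate early genes were deep enough, with 3 of 18 tested, 2 of them positive.

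Several genes of lymphatic interest had small unadjusted p-values, and none of them passed the adjustment (adjusted p = 0.979 by edgeR for each in this paragraph). Tll1 was at 590 and 756 CPM with an injured father, against 982 and 1711 CPM with an uninjured father, with a log2 fold change of -0.97 (SE 0.26). Sema3a was at 700 and 699 CPM with an injured father, against 469 and 362 CPM with an uninjured father, with a log2 fold change of 0.74 (SE 0.21). The groups did not overlap for either gene. Pparg, a nuclear receptor of lipid metabolism, was at 279 and 232 CPM with an injured father, against 395 and 421 CPM with an uninjured father. Tmtc1, on the valve list, was at 372 and 471 CPM with an injured father, against 582 and 784 CPM with an uninjured father. Mecom, a transcription factor of vascular endothelium, was at 162 and 224 CPM with an injured father, against 375 and 396 CPM with an uninjured father, with a log2 fold change of -0.98 (SE 0.25). One nucleus held 33 of the 76 Mecom UMIs of the first uninjured-father library, which was at 220 CPM without it.

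Genes named by the smallest unadjusted p in each direction make up the rest, given as values. With higher levels for an injured father these included Dpyd, an enzyme of pyrimidine breakdown, with 34 and 27 UMIs, against 9 and 3 UMIs with an uninjured father, and Fgf14, which regulates sodium channels, with 74 and 43 UMIs, against 19 and 10 UMIs with an uninjured father. Their log2 fold changes, which allow for the unlike library totals, were 1.69 and 1.36. Cemip2, a cell surface protein linked to hyaluronan breakdown, was at 712 and 205 CPM with an injured father, against 148 and 110 CPM with an uninjured father, so its excess lay mainly in the first injured-father library, where 1 nucleus held 81 of its 176 UMIs. Of the UMIs just given, 1 nucleus also held 35 of the 74 of Fgf14. Fam214a, Plekho2, Btaf1 and Nek1 had log2 fold changes of 1.52, 1.46, 1.23 and 1.65. With lower levels for an injured father were Tmsb4x, the actin-binding thymosin beta 4, with 41 and 22 UMIs, against 74 and 32 UMIs with an uninjured father, 34 of the 74 in 1 nucleus, and Wdfy4, a gene of antigen-presenting cells, with 3 and 3 UMIs, against 14 and 9 UMIs with an uninjured father. The B lymphocyte marker sums ran in the same direction as Wdfy4, at 48.5 and 26.6 CPM with an injured father, against 88.8 and 101 CPM with an uninjured father, and their part in it was not tested. Ppp1r14c, Cst3, Egfr, Lbp, Pcdh9 and Lhfp had log2 fold changes of -1.37, -1.27, -1.66, -1.02, -1.41 and -0.80. None of these genes was called.

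**Figure D5:**
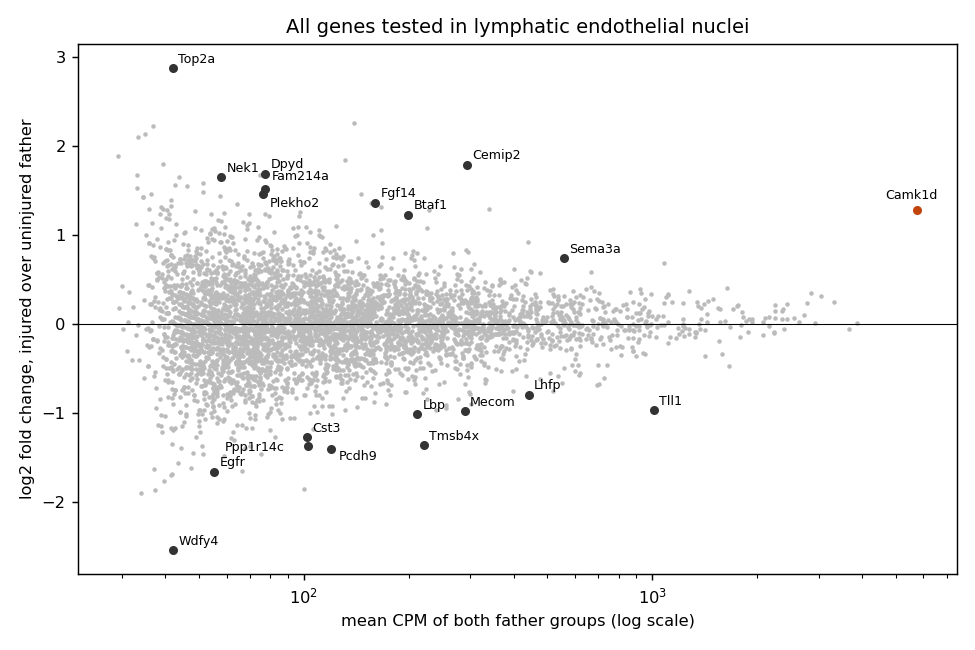
Log2 fold change of injured over uninjured father against mean CPM on a log scale for the 4569 genes tested in lymphatic nuclei; Camk1d, the called gene, is in orange, and dark points are the genes named by the smallest unadjusted p in each direction. Camk1d stood at 1.29 with the highest mean CPM of the named genes, and Top2a and Wdfy4, with few UMIs, lay at the extremes.

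The cell cycle genes illustrate how few nuclei can carry a difference. Top2a, a topoisomerase of dividing cells, had 24 and 13 UMIs with an injured father, against 1 and 2 UMIs with an uninjured father, and Mki67, a proliferation marker, had 13 and 18 UMIs with an injured father, against 2 and 2 UMIs with an uninjured father. Neither was called. Over Top2a, Mki67 and Cenpf the sums were 186 and 216 CPM with an injured father, against 44.4 and 42.1 CPM with an uninjured father. These rested on 46 and 57 UMIs with an injured father, against 9 and 5 UMIs with an uninjured father. Of these UMIs, 44 and 53 with an injured father, against 7 and 5 with an uninjured father, came from the 3 nuclei with the most in each library. Members with 2 or more such UMIs numbered 3 and 4 with an injured father, against 2 and 2 with an uninjured father, so such nuclei were few in both groups. These were 11 of 232 members (4.74%), against 28 of 6729 vascular nuclei (0.416%). After thinning to 1000 UMIs, 8 of 227 members (3.52%) held at least 1 such UMI, against 71 of 5875 vascular nuclei (1.21%). By library these members were 2 of 64 and 2 of 71 with an injured father, against 4 of 55 and 0 of 37 with an uninjured father. The father groups thus overlapped at that depth. In the second uninjured-father library 0.684% of vascular nuclei held such a UMI, and 37 members are too few to compare with that rate. Before thinning, 5.41% of members and 0.317% of vascular nuclei of that library held 2 or more such UMIs.

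A direct test asked whether the father difference differed between lymphatic and vascular nuclei. The interaction fit, with the library as a block, called 0 of 10276 genes in either direction (0%), while 215 (2.09%) were higher and 207 (2.01%) lower at an unadjusted p under 0.05. With endocardial nuclei in place of vascular ones it called 0 of 6135 genes. The smallest adjusted p was 0.267, by edgeR, for Tox and Tll1. Tox, a nuclear factor known from T lymphocytes, had 44 and 38 UMIs in members with an injured father, against 58 and 32 UMIs with an uninjured father, and 236 and 131 UMIs in vascular nuclei with an injured father, against 74 and 37 UMIs with an uninjured father. Its mean in members was 161 CPM with an injured father and 278 CPM with an uninjured father. In vascular nuclei the same means were 49.9 and 21.0 CPM. The difference of the log2 fold changes was -1.91 (SE 0.38) for Tox and -1.37 (SE 0.28) for Tll1. T lymphocyte marker sums in vascular nuclei were 171 and 53.4 CPM with an injured father, against 46.5 and 31.5 CPM with an uninjured father, and their part in the Tox values was not tested. Tll1 averaged 673 CPM in members with an injured father and 1347 CPM with an uninjured father, whereas in vascular nuclei it averaged 64.2 CPM with an injured father and 46.4 CPM with an uninjured father.

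The remaining interaction genes were given by the same rule and were not called. Fmo2, Wdfy4 and Kcnq5 had differences of -2.68, -2.91 and -3.24, and each held 25 or fewer UMIs in any library of members. Cemip2, Plekho2, Chn1 and Cdc14a had differences of 1.68, 1.74, 1.06 and 1.18. Casp2, an initiator caspase, had 6 and 5 UMIs in members with an injured father, against 0 and 0 UMIs with an uninjured father, and its fitted difference is not given because it depends on the prior count. The count of 0 became 3, 22, 1 and 6 called genes without the first and second injured-father and the first and second uninjured-father library.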

How the data were processed

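Nuclear RNA of 4 hearts was counted per nucleus. Per the file headers, the authors made the deposited UMI counts in Cell Ranger 6.0.1. The submitters' processing notes also name Seurat 4.0. The values are whole-number counts for 21884 features with no normalization. Their genome build is not given in the sources used here, and no coordinates are printed.

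The members and gene lists were chosen with earlier results of these data known. Doublets were marked, not removed, with Scrublet in scanpy 1.11.5. Counts were summed over nuclei per library, since the heart is the replicate. Genes were filtered with filterByExpr (minimum count 10), scaled by TMM and tested two-sided with the edgeR 4.0.16 quasi-likelihood test in R 4.3.3, with Benjamini-Hochberg adjustment over all genes and a threshold of 0.05. CPM values are not TMM-scaled. SEs are the absolute log2 fold change over the root of the F statistic. DESeq2 1.42.0 was an alternative. The scripts were tested on simulated data.

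Genes named are the rule genes and Flt4, up to 6 per list by level and 3 by p, the 25 leading genes, the 10 smallest p per direction (5 for the interaction), and 6 genes known from earlier results. Other genes of the lists were chosen after their values were seen, among them the ligands, receptors and valve genes. Cardiomyocyte nuclei were to be taken at 10% of Ttn, Ryr2 and Myh6 UMIs, and 3% was used because few nuclei reached 10%. Predicted genes are not named.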

Additional observations from a re-analysis of the deposited data

How the results depend on the processing

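The share of lymphatic nuclei stayed higher with an injured father under all 11 alternatives run, by 0.046 to 0.246 percentage points in the group means, while the libraries of the groups overlapped with nuclei thinned, with mitochondrial UMIs under 1% and with endothelial nuclei as the denominator. With 1 library left out the difference was 0.102 to 0.246. No setting could give p under 0.33.

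Camk1d was the 1 called gene with DESeq2 size factors, the DESeq2 Wald test, a minimum count of 5, lymphatic thresholds of 5 or 2 UMIs, doublets left out and nuclei thinned to 1000 UMIs. The number called was 18 with no filter on low counts, of 13602 genes tested, 0 with mitochondrial UMIs under 1%, where 137 passed an unadjusted p under 0.05, and 3 to 47 with 1 library left out. The cause of these shifts was not tested. Where a library is left out, the lone sample of its group is assumed to vary like the others.

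The labels do not say that replicate numbers pair hearts, and same-numbered libraries did not deviate together (r = 0.040 over genes). With the replicate block 3 genes were called, Camk1d, Macrod2 and Cemip2, and 6 in the interaction. The interaction also called 7 genes at a minimum count of 5 and 1 to 22 with 1 library left out.

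Over 34 named genes and their alternatives, 455 values in all, 429 kept direction and call, 23 became called, 1 lost its call (Camk1d at under 1% mitochondrial UMIs) and 2 turned direction. Those were Cmss1 at -0.14 without the second uninjured-father library and Flt4 at -0.031 without the first injured-father library, neither of them called there. With 1 library left out Cmss1 ranged between -0.14 and 0.78, called at its highest, and Flt4 between -0.031 and 0.33. In vascular nuclei 0 to 222 genes and in endocardial nuclei 0 to 58 genes were called with 1 library left out, against 3 in each with all. That alternative was chosen after seeing the data. Of 307 entries on the pathway lists 178 were deep enough for the test, as were 4569 of all 21884 features.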
